A study of Homo sapiens with 8 samples.

Results

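The 39 protein-coding HOX genes of the human genome, in the clusters HOXA, HOXB, HOXC and HOXD, were followed through 8 lists of open chromatin. The genes were taken by name from the gene annotation, as 39 of 20162 protein-coding genes, and each cluster was read from its first to its last gene with 20 kb added on each side, which gave 682.71 kb in all. The clusters held 11 genes in HOXA (chr7:27112612-27259710), 10 in HOXB (chr17:46585888-46826112), 9 in HOXC (chr12:54312615-54469814) and 9 in HOXD (chr2:176937449-177075635), all on build GRCh37 (hg19).

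The libraries were made by ATAC-seq, in which a transposase inserts sequencing adapters into open DNA, on LX-2, a human hepatic stellate cell line labelled wild type. Cells were kept on a soft hydrogel of about 2 kPa, near the stiffness of healthy liver, or on a stiff one of about 40 kPa, near that of cirrhotic liver, for 2 days (D2) or 4 days (D4). Each pairing of matrix and day, as in D2 soft or D4 stiff, had 2 libraries, and all of them share this one immortalised line, so that nothing here speaks of stellate cells from other donors. The methods of the study call the replicates biological, the labels do not say whether they were separate cultures, and any p-value measures only the spread between these libraries.

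HOX genes encode homeodomain transcription factors that give cells their position along the body axis, and they lie in each cluster in the order in which they are used. The genes with low numbers are at the 3′ end and act early and towards the head, and those with high numbers are at the 5′ end and act late and towards the tail and the limb tips. Mesenchymal cells of the adult keep part of this code, Polycomb proteins hold the unused genes silent, and HOX proteins bind DNA together with partners of the PBX and MEIS families.

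One library stood apart before any comparison was made. D2 soft replicate 1 had 29789 peaks and the other lists had 55754 to 72840, and the fragments stacked under its HOX promoter peaks numbered 8 in the median, against 11.5 to 22 elsewhere. The D4 stiff libraries were the deepest, with 22 in each. Among genes that mark cell types, a promoter peak in every library was found for 6 of 13 stellate cell or fibroblast markers, among them ACTA2, TAGLN, COL1A1 and PDGFRB, and for 0 of 5 hepatocyte, 0 of 4 cholangiocyte and 0 of 2 endothelial markers and 1 of 4 blood cell markers (CD68). The cholangiocyte marker SOX9 and the endothelial marker KDR had one in 7 libraries, at mean percentiles of 58.0 and 64.3. COL3A1, DES and LRAT, the last an enzyme of vitamin A storage in stellate cells, had a promoter peak in no library.

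Sequences are printed for 8 of the 11 sites that were chosen as the strongest of their cluster, as holding a match to the HOX and PBX or the CTCF motif, or as found in every stiff and no soft library, and 2 of the others overlap an annotated UTR. Each run is the forward strand of GRCh37, 201 bases centred on the summit of the site. Capitals mark matches on either strand to TGATTNAT (HOX and PBX), to the core of the CTCF motif (CTCF forms chromatin boundaries), to TGANTCA (AP-1) and to GGAATG (TEAD). A match is a description of letters, not a binding site. The match TGATTCAT holds TGATTCA, so that 1 stretch counts for both HOX and PBX and AP-1. The windows are, in the order printed, chr17:46715309-46715509, chr2:176962317-176962517, chr2:177005254-177005454, chr17:46591934-46592134, chr7:27160161-27160361, chr7:27162280-27162480, chr7:27170496-27170696 and chr12:54346878-54347078.
LINC03057 intron upstream of HOXB9: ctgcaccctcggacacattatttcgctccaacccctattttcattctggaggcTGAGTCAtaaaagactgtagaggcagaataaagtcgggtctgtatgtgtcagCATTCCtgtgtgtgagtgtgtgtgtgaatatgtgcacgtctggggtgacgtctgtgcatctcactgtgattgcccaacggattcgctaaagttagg
HOXD13 to HOXD12 interval: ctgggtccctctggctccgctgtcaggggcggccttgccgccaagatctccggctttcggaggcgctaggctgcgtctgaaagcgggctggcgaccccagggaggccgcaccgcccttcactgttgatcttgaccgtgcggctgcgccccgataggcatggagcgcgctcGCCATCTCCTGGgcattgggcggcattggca
HOXD3 intron: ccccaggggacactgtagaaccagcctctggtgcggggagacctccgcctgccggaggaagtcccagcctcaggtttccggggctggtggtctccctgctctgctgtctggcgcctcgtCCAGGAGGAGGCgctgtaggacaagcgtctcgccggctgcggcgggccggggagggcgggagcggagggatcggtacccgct
HOXB1 downstream region: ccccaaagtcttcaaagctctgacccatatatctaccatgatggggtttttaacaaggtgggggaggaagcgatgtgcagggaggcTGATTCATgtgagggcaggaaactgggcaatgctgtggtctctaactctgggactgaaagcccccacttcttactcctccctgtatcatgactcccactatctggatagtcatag
HOXA4 downstream region, distal: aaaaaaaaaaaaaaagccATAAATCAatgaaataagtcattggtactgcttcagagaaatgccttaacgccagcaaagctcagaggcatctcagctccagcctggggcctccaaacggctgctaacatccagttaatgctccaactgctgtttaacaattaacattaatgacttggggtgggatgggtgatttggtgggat
HOXA4 downstream region, proximal: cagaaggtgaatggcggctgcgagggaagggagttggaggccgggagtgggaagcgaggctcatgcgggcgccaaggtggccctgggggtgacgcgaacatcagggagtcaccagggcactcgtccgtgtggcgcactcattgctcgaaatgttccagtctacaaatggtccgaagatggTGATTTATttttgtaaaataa
HOXA4 promoter: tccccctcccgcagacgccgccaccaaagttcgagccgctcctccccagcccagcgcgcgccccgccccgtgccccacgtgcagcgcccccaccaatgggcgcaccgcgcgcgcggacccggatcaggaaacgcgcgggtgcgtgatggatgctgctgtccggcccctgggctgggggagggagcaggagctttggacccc
HOXC12 upstream region: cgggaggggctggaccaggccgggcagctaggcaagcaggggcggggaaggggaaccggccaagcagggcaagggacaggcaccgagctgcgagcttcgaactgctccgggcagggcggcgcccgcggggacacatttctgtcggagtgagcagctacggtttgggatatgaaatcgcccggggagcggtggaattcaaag

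To see which HOX genes were open at all, a promoter peak was defined as a peak that overlaps 1 kb on either side of the main start of the gene. Such a peak was present in every library for 7 of the 39 genes (17.9%), namely HOXA5, HOXB9, HOXC4, HOXC5, HOXC9, HOXC13 and HOXD1, whereas 42.0% of all coding genes had one in every library. HOXC held 4 of the 7, and each of the other clusters held 1. In no library was a promoter peak found for 10 genes (25.6%, against 32.6% of all coding genes), namely HOXA3, HOXA6, HOXA7, HOXA9, HOXB1, HOXB3, HOXB8, HOXC12, HOXD12 and HOXD13. The remaining 22 genes had a peak in 1 to 7 libraries.

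The absence of a peak is not a closed promoter, since a weak one can lie under the threshold of the caller, and for genes with several starts it depends on the start that is read. HOXB3 and HOXC6 had a peak in every library when any coding start was allowed, and HOXA3 in 3, HOXD3 in 4, HOXA10 in 3 and HOXB8 in 2 libraries. HOXA6, HOXA7, HOXA9, HOXB1, HOXC12, HOXD12 and HOXD13 had none at any coding start. HOXA9 acts in blood progenitors, HOXB1 in the hindbrain, and HOXD12 and HOXD13 in the digits.

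Along the clusters, a peak in every library was found for 2 of 12 anterior genes (numbers 1 to 4), 2 of 11 central genes (5 to 8) and 3 of 16 posterior genes (9 to 13), and a peak in no library for 3, 3 and 4 of them. These counts go by gene number and main start. The main start of HOXA3 lies between those of HOXA6 and HOXA7, and that of HOXB3 between those of HOXB4 and HOXB5. Both genes had peaks at other coding starts, as given above. The promoters with a peak in every library were not contiguous in HOXC, where HOXC4, HOXC5, HOXC9 and HOXC13 alternated with HOXC6, HOXC8, HOXC10 and HOXC11, which had a peak in 2 to 5 libraries, and with HOXC12.

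HOX promoters were also weaker than other promoters. The strength of a peak is given as its percentile, the percent of the peaks of the same library with a lower fold enrichment over local background. The median percentile of HOX promoter peaks lay between 23.3 and 38.7 in the 8 libraries, and that of all coding promoters between 60.8 and 67.7. The number of HOX promoter peaks above the median of all promoters was 0 to 3 per library. The median summit of a HOX promoter peak held 8 to 22 fragments and that of all promoters 13 to 44, as recovered from the deposited values. The local background at HOX promoters was not higher, with medians of 0.688 to 2.99 fragments against 1.02 to 3.80. Ranked by −log10 p the HOX medians were 26.2 to 43.7, against 62.8 to 77.3.

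**Figure D1:**
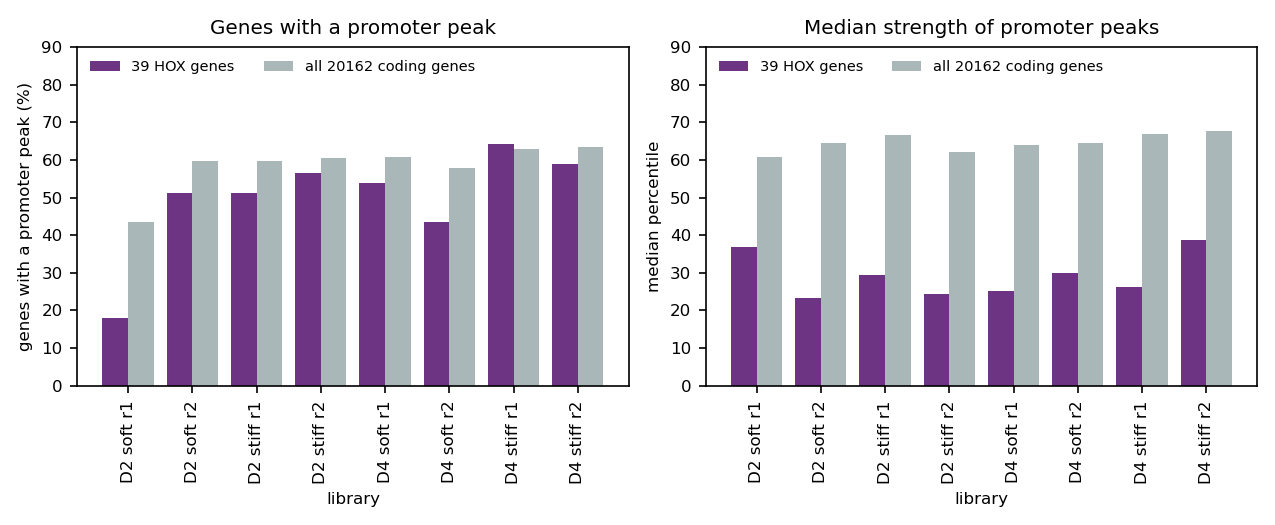
Percent of genes with a promoter peak (left) and median percentile of the promoter peaks by fold enrichment (right) in each library, for the 39 HOX genes and all coding genes; each bar is 1 library, r1 and r2 are the replicates. HOX bars are lower than the bars of all genes in every library except for the share in D4 stiff replicate 1 (64.1% against 63.0%).

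Most HOX promoters are rich in CpG, and such promoters are usually open. Among promoters with at least 55% GC and a CpG ratio of at least 0.6, a limit that was set after the data had been seen, 6 of 30 HOX genes (20%) had a peak in every library, against 57.0% of 12002 coding genes. A peak in no library was found for 7 of the 30 (23.3%), against 12.8%.

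For each cluster, the strongest and the weakest promoter open in every library are given one by one. Percentiles are in the order soft replicates 1 and 2 then stiff replicates 1 and 2 of D2, followed by the same of D4. HOXB9, which acts in the thoracic skeleton, was the strongest, with 43.5, 63.6, 75.0, 69.8, 83.9, 66, 48.8 and 55.9. HOXC4, at the 3′ end of HOXC, had 79.7, 46.6, 29.6, 66, 61.5, 65.5, 77.4 and 64.2. Its highest and lowest values were both from day 2 and the groups overlapped. HOXC9 was the weakest of the 7, with 17.4, 10.8, 5.17, 15.2, 9.11, 3.23, 33.5 and 19.9. Both D4 stiff libraries were above the other 6 there. HOXA5, which acts in the lung, had 33.9, 39, 57.6, 23.6, 33.3, 43.9, 40.6 and 62.1, and HOXD1 had 36.8, 27.2, 49.7, 18.8, 46.4, 29.8, 56.0 and 41.2. Stiff and soft libraries overlapped for both genes on both days. HOXC13, a regulator of hair keratins, and HOXC5 lay between these bounds, at 31.6 to 79.3 and 19.3 to 51.8.

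**Figure D2:**
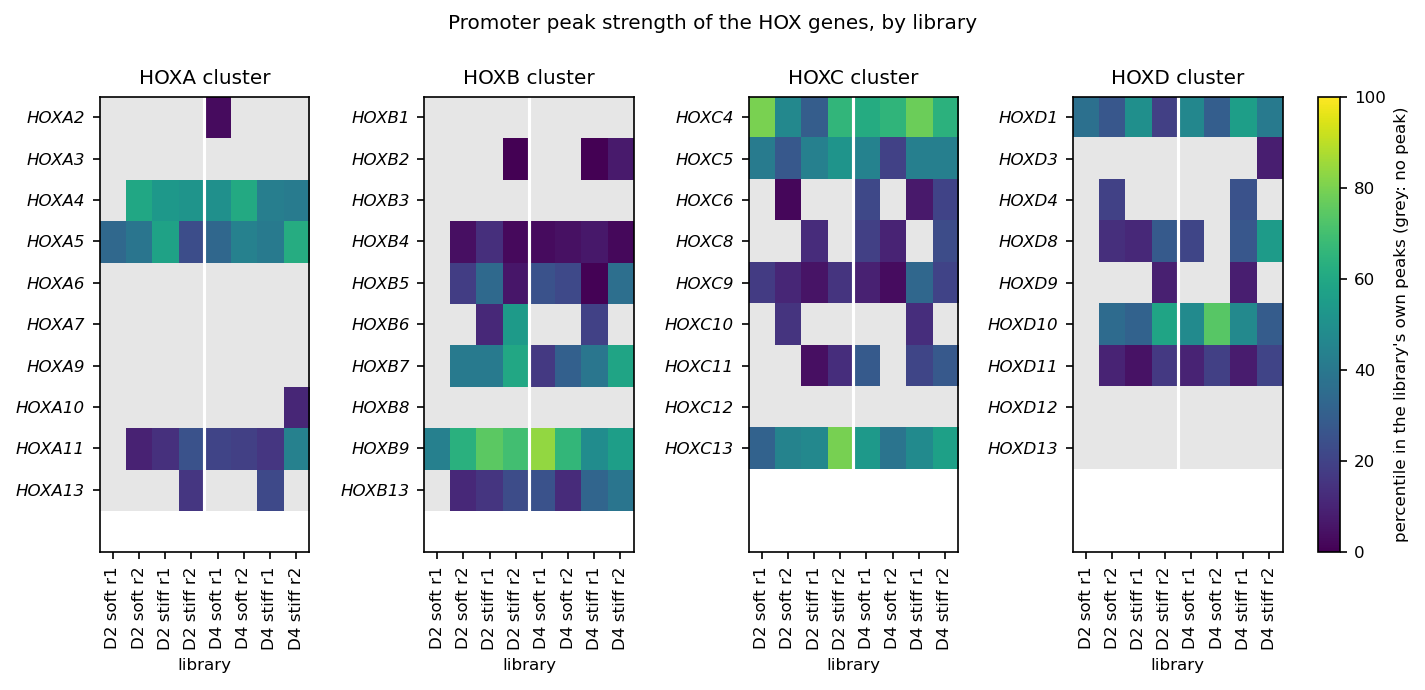
Percentile of the promoter peak of the HOX genes shown (rows, by cluster and number) in each library (columns; D2 left and D4 right of the white line, r1 and r2 are the replicates), with grey for no peak. D2 soft replicate 1 is grey for all but 7 genes, and the highest value of any promoter is 83.9, for HOXB9 in D4 soft replicate 1.

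A peak in 7 libraries, lacking only in D2 soft replicate 1, was found for 9 HOX genes (23.1%, against 11.2% of all coding genes). Among them were HOXA4, HOXA11, HOXB4, HOXB5, HOXB7, HOXB13, HOXD10 and HOXD11, and with that library left out 16 of 39 HOX promoters (against 53.2% of all) were open in every library. The values that follow start with D2 soft replicate 2 and keep the order above.

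Among the anterior ones, HOXA4 had percentiles of 59.4, 53.3, 51.7, 50.1, 60.9, 42.7 and 41.7. HOXB4, known for the growth of blood stem cells, had 4.19, 13.4, 2.71, 3.05, 4.41, 6.62 and 2.22. HOXA4 was thus in the middle of the peaks of each library and HOXB4 near the bottom. The low rank of HOXB4 came with a high local background, since its summits held 17 to 41 fragments over a background of 3.06 to 9.82, whereas those of HOXA4 held 13 to 20 over 0.824 to 1.98.

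HOXB5 had 18.1, 34.0, 6.14, 25.1, 22.2, 0.514 and 36.5, and HOXB7, of the central genes, had 40.9, 40.9, 60.1, 16.7, 30.6, 39.5 and 58.3. The HOXB5 values do not all come from one peak, since the summit lay 480 and 367 bases downstream of the start in D2 stiff replicate 2 and D4 stiff replicate 1, the lowest pair, and upstream of it in the other 5. Of the posterior genes, HOXD10 had 34.8, 31.5, 58.5, 47.7, 74.1, 46.9 and 29.2, and HOXD11, which with HOXA11 forms the forearm, had 9.91, 5.00, 16.7, 9.89, 19.1, 7.78 and 20.4. HOXA11 had 9.40, 13.7, 25.3, 20.4, 18.9, 15.9 and 43.8. The HOXA11 values do not all come from the same peak either. The summit lay 94 bases upstream of the start in D4 soft replicate 1 and 280 to 694 bases downstream in the other libraries with a peak. HOXB13, known from prostate epithelium, had 11.4, 15.3, 23.4, 25.1, 12.3, 32.4 and 38.7, and both D4 stiff libraries were above the other 5 libraries with a peak.

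HOXD8 was found in 6 libraries, with 13.6 in D2 soft replicate 2, 11.4 and 28.2 in D2 stiff, 21.0 in D4 soft replicate 1, and 27.3 and 55 in D4 stiff. The HOXD8 values do not all come from the same peak. The summit lay 835 to 921 bases downstream of the start at 11.4, 21.0 and 27.3, and upstream of it at the others. HOXC11 was found in 5 libraries, with 4.04 and 13.2 in D2 stiff, 28.4 in D4 soft replicate 1, and 20.8 and 28.1 in D4 stiff. The HOXC11 summit lay 754 to 836 bases downstream of the start, but upstream of it in D4 stiff replicate 2. HOXC6 was found in 4, with 1.62 in D2 soft replicate 2, 21.8 in D4 soft replicate 1, and 6.68 and 20 in D4 stiff. HOXC8, also in 4 libraries, had 9.94 to 23.4.

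The HOX genes open in 1 to 3 libraries had most of their peaks on the stiff matrix. Of all coding genes, 20.8% had a peak in more stiff than soft libraries, and 2.02% the reverse. The share among all coding genes open in 1 to 3 libraries was not counted. HOXB2 and HOXB6 were found in 3 stiff libraries each, and HOXA13 and HOXD9 in D2 stiff replicate 2 and D4 stiff replicate 1 alone. HOXC10 and HOXD4 were each found in D2 soft replicate 2 and D4 stiff replicate 1, HOXA10 and HOXD3 in D4 stiff replicate 2, and HOXA2, which gives the second arch of the embryo its identity, in D4 soft replicate 1. These peaks had 6 to 24 fragments at the summit and percentiles of at most 25.4, except for HOXB6 in D2 stiff replicate 2 (54.5).

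The main question of the study was how the stiffness of the matrix alters chromatin. No HOX promoter had a peak in all 4 stiff and none of the 4 soft libraries (background 0.179% of coding genes), and none had the reverse (background 0.0%). A peak in more stiff than soft libraries was found for 17 HOX genes, which is 43.6% against 20.8% of all coding genes, and in more soft than stiff libraries for 1, HOXA2 (2.56% against 2.02%). For 9 of the 17 the difference was D2 soft replicate 1 alone. Within day 4, which does not hold that library, 11 HOX genes (28.2%, against 8.05%) had a peak in more stiff than soft libraries and 2 (5.13%, against 1.6%) in fewer. This restriction to day 4 was chosen after the values were seen. HOXB2 was the 1 gene with a peak in both D4 stiff and no D4 soft library (2.56%, against 1.56%), and 0 HOX genes had the reverse (against 0.124%). The D4 stiff libraries were also the deepest, and the part of depth in these counts was not tested.

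Strength was tested with limma on ranks, for the 7 HOX promoters among the 8478 coding promoters with a peak in every library. 0 HOX promoters passed an adjusted p of 0.05 for stiff against soft on D2 or D4 or over both days, for D4 against D2, or for the difference between days. In all 8478 promoters, 0 were called on D2 (7.16% at an unadjusted p under 0.05, 0 of them HOX) and 2 on D4 (0.0236%, and 5.8% at an unadjusted p under 0.05, 1 of them HOX). For D4 against D2 on the stiff matrix 2 (0.0236%) were called, and 0 in the remaining comparisons. At an unadjusted p under 0.05 were 7.24% of all for stiff against soft over both days, 7.54% for D4 against D2 on the soft matrix, 5.96% on the stiff matrix, 7.82% over both, and 5.78% for the difference between days. 1 HOX promoter was among the last of these and 0 among the others. The HOX effects in normal scores ranged from −0.75 to 0.59 on D2 and from −1.07 to 0.84 on D4, with medians of −0.22 and 0.18 beside −0.025 and −0.020 for all promoters tested.

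HOXB9 had the HOX effect with the lowest unadjusted p. Its promoter was higher in both stiff than in both soft libraries on D2 and lower in both on D4, with percentiles as given above and no overlap on either day. The effect was 0.39 ± 0.46 (SE) on D2 and −1.07 ± 0.46 (SE) on D4, with adjusted p = 0.891 and 0.850 (limma), and the difference between the days was −1.46 ± 0.65 (SE) with adjusted p = 0.846. It did not hold up against the number of promoters tested.

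The clusters were then read site by site, promoters included. Peaks of the 8 lists were merged into sites seen in at least 2 libraries, of which 73 of 75501 lay in the HOX windows, 18 in HOXA, 28 in HOXB, 14 in HOXC and 13 in HOXD. Their centres were within 1 kb of a start for 45 sites, in an intron for 13, in an exon for 3 and between genes for 12. A peak in every library was found at 12 of the 73 (16.4%, against 32.1% of all sites), and their median mean percentile was 23.4, against 43.7. Their GC content was 62.7% in the median and 48.3% over all sites. D2 soft replicate 1 lacked 58 of them (79.5%, against 61.7%).

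**Figure D3:**
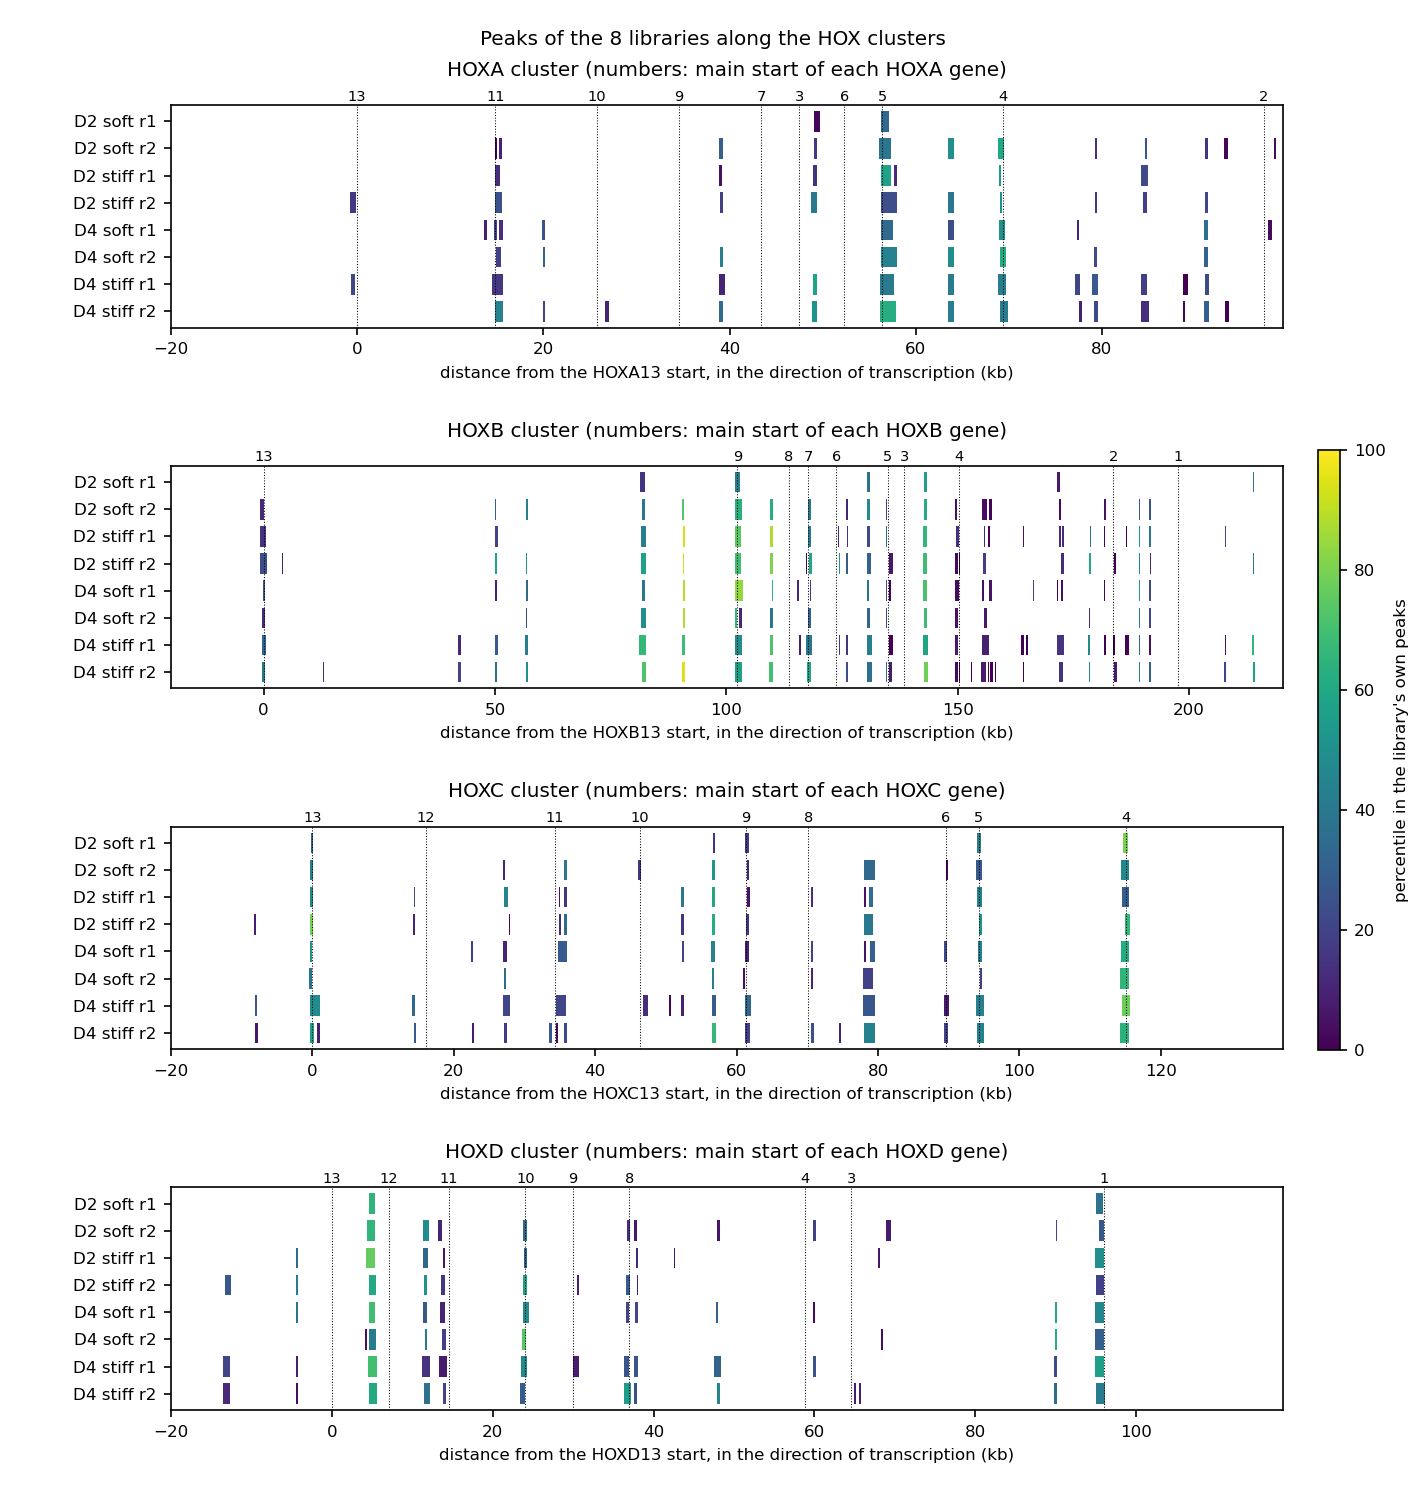
Peaks of each library (rows; r1 and r2 are the replicates) along the HOX windows, as distance in kb from the main start of the gene numbered 13, with 20 kb beyond the outermost genes except in HOXA, which is drawn in part; dotted lines and numbers mark the main starts, and colour is the percentile of the peak. The strongest marks lie between HOXB13 and HOXB9 and upstream of HOXB8, and wide stretches between peaks are empty in all rows, such as that before HOXC4.

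The strongest HOX site of all was not at a HOX promoter. It lies at chr17:46715059-46715754, in an intron of the long noncoding RNA LINC03057, 11689 bases upstream of the HOXB9 start, and its summit window holds an AP-1 and a TEAD match (TGAGTCA and CATTCC in the printed run). On D2 its percentile was 73.3 in soft replicate 2 and 93.4 and 93.3 on the stiff matrix, and soft replicate 1 had no peak there. On D4 it was 88.7 and 88.2 for soft against 68.5 and 94.6 for stiff. Stiff and soft overlapped on D4, where the D4 stiff replicates were the lowest and the highest of all. With 24 to 40 fragments at the summit, its fold enrichment was 9.43 to 14.1.

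In HOXD the strongest site, chr2:176961534-176963104, lies between HOXD13 and HOXD12, 2106 bases upstream of HOXD12, and was open in every library. Its percentile was 64.7 and 65.2 on soft against 76.2 and 60.3 on stiff matrix on D2, and 69.2 and 41.3 against 69.8 and 60.6 on D4. The groups overlapped on both days. The promoters of HOXD13 and HOXD12 on either side had no peak in any library. The site holds 1 of the 3 CTCF matches in the HOX clusters, GCCATCTCCTGG on the reverse strand. The others are in an intron of HOXD3 (chr2:177005019-177005845, 4 libraries, percentiles 5.62 to 46.4, CCAGGAGGAGGC) and at an alternative start of HOXA10 (chr7:27219478-27219821, 3 libraries).

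In HOXC the strongest site was the HOXC4 promoter itself (chr12:54446832-54448250, mean percentile 61.3), and in HOXA the HOXA4 promoter (chr7:27169843-27170826, 51.4). Of the HOXB sites open in every library, the strongest was in an intron of HOXB3 (chr17:46662492-46663512), at 57.3 to 78.4 with 18 to 97 fragments. The HOXB9 promoter followed. A further site in an intron of HOXB7, upstream of HOXB8 (chr17:46695958-46696789), had 39.2 to 87.7 in 7 libraries, although HOXB8 had no peak at its main start.

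Long stretches held no site, although a peak of 1 library could lie in them. Between the outermost starts the longest was 41.4 kb in HOXB, from an intron of LINC02086 towards HOXB13, followed by 29.6 kb in HOXD, which holds the HOXD3 start, 19.2 kb in HOXC between HOXC5 and HOXC4, and 18.6 kb in HOXA, which holds the starts of HOXA9 and HOXA10.

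Motif letters were counted within 100 bases of each summit. The AP-1 letters were found at 7 HOX sites (9.59%), against 38.9% of all sites, and those of TEAD at 7 (9.59%, against 19.1%). HOX and PBX letters were found at 4 (5.48%, against 7.50%), CTCF letters at 3 (4.11%, against 3.80%), and the retinoic acid response element at 0 (against 0.646%). The part of the higher GC content of HOX sites in these shares was not tested. Of the HOX and PBX matches, 1 lay 16339 bases downstream of HOXB1 and 2 lay at sites in HOXA-AS2 within the HOXA3 gene, between the main starts of HOXA4 and HOXA2, and these 3 are among the printed runs.

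Sites found in both replicates of one group and neither of another were counted next. On D4, 12 HOX sites (16.4%, against 6.72% of all sites) had a peak in both stiff and in neither soft library, and 0 (against 1.31%) had the reverse. On D2 the counts were 6 (8.22%, against 7.45%) and 0 (against 0.391%). From D2 to D4, 4 sites (5.48%, against 5.79%) appeared and 1 (1.37%, against 0.403%) was lost on the soft matrix, and 6 (8.22%, against 5.35%) appeared and 0 (against 1.41%) were lost on the stiff matrix. In all 4 soft and no stiff libraries there were 0 (against 0.0172%). With 2 libraries a group, no test was made of these counts. The D4 stiff count was 11 to 22 when any 1 library was left out (22 without D4 soft replicate 1, 31.0% against 15.6% of all sites). In lists shortened to equal length it was 2 of 22 HOX sites (9.09%, against 3.0% of all sites).

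The D4 stiff-only sites were weak, and 10 of the 12 had a mean percentile below 50 there. HOX sites in general were weak too, with a median mean percentile of 23.4. The share of all D4 stiff-only sites below 50 was not counted. The strongest was the site downstream of HOXB1 that carries the HOX and PBX letters (chr17:46591870-46592481), with 65.3 and 55.6 in D4 stiff, 80.4 and 39.7 in D2 stiff and 39.2 in D2 soft replicate 1. It was followed by a site at a HOXA-AS3 start near HOXA6 (chr7:27189985-27190908, 57.6 and 51.9) that was present in both D2 soft libraries, by a site 1709 bases upstream of HOXC12 (chr12:54346711-54347316, 32.7 and 28.4) and by a HOXB-AS3 start near HOXB6 (chr17:46679845-46680189, 15.4 and 23.6). Only the site upstream of HOXC12 was found in all 4 stiff and no soft libraries (1.37%, against 0.85% of all sites). Its peaks held 9 and 6 fragments in D2 stiff and 14 and 12 in D4 stiff.

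On D2 the strongest stiff-only HOX sites were at a HOXB-AS3 start upstream of HOXB2 (chr17:46627349-46627835, 37.1 and 60.5), 4306 bases upstream of HOXD13 (chr2:176952939-176953291, 34.2 and 41.1), at the HOXB6 promoter (chr17:46681426-46681940, 11.6 and 54.5) and at a HOXC6 and MIR196A2 start (chr12:54384784-54385178, 39.6 and 15.2). From D2 to D4 on the stiff matrix the strongest that appeared were the HOXD3 intron with the CTCF letters (31.0 and 46.4), an intron of HAGLR upstream of HOXD1 (chr2:177047258-177047660, 21.7 and 35.2), an intron of LINC02086 (chr17:46763361-46764014, 11.5 and 19.9) and a HOXA-AS2 start (chr7:27161842-27162642, 20.5 and 9.32). On the soft matrix the 4 that appeared, among them sites at HOXA10, upstream of HOXB2 and at HOXC8, had mean percentiles of 5.15 to 27.8.

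With limma, 0 of the 12 HOX sites present in every library were called in any comparison among 24246 sites. Of the 12, 10 had centres within 1 kb of a start, so this fit is not independent of that on promoters. The background for stiff against soft was 1 higher site on D2 (0.00412%) and 2 on D4 (0.00825%). Over both days it was 1 higher and 1 lower site (0.00412% each), and it was 0 in the remaining comparisons. The lowest adjusted p of a HOX site was 0.662 (limma).

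Finally, the length under peaks was added up over each cluster. On D2 the HOX windows held 15 and 53 peaks for soft against 58 and 58 for stiff, and on D4 61 and 42 against 70 and 76. Peaks covered 9.78 and 29.8 kb against 27.6 and 31.1 kb on D2, and 30.6 and 22.9 kb against 53.4 and 45.3 kb on D4. Although their promoters were weak, the clusters held more peaks than the genome does on average, and the covered share of the windows was 2.70 to 5.47 times that of the genome. The genome average is not matched for gene content. The HOX windows hold 39 coding genes, and 45 of their 73 sites had centres within 1 kb of a start. Windows as rich in genes were not compared, so the ratio does not show clusters more open than other gene-rich regions. D4 stiff replicate 1 had wider peaks in general, 587 bp in the median against 399 to 493 bp in the others, so the share relative to the genome is used from here on. Across all windows this ratio was lowest in D2 soft replicate 1, the shortest list, at 2.70. It was highest in the D4 stiff libraries, the deepest, at 5.47 and 5.12. The part of depth in it, and in the differences between groups below, was not tested.

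HOXB had the highest ratio of the 4 clusters in 7 of 8 libraries (in D4 soft replicate 2 HOXA was higher), with 3.31 and 5.09 on soft against 5.42 and 5.14 on stiff matrix on D2, and 4.33 and 3.67 against 6.03 and 5.66 on D4. Every stiff library was above every soft one there, as in 1 of the 4 HOX windows, where the background was 2.39% of 10395 windows of 170 kb, and in 0 was the reverse seen (3.18%). In the same order the HOXA values were 2.05 and 4.20, 3.39 and 4.46, 4.19 and 4.08, and 5.17 and 5.36. In HOXC they were 2.91 and 4.03, 4.12 and 3.37, 4.09 and 2.85, and 5.43 and 4.77. In HOXD they were 2.09 and 4.20, 3.43 and 3.5, 3.88 and 2.87, and 4.87 and 4.34. The D4 stiff libraries were above both D4 soft libraries in 4 of 4 windows (background 18.5%, and 23.5% for the reverse) and above all the other 6 libraries in 4 of 4 (background 3.71%), a count that was made after the values had been seen.

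**Figure D4:**
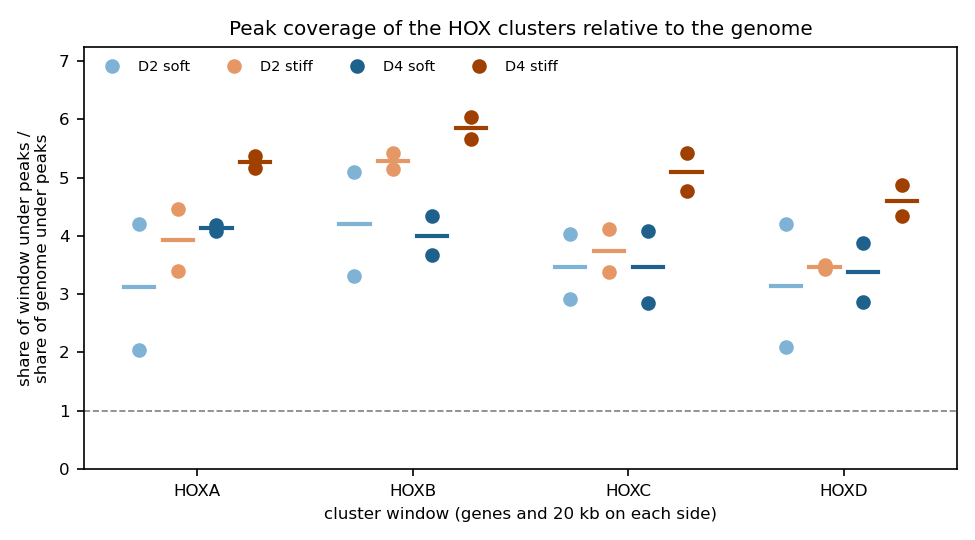
Share of each HOX window under peaks divided by the share of the genome under peaks, by cluster and group; points are libraries, short lines are means of 2, and the dashed line marks the genome average. Both D4 stiff points are the highest in all 4 clusters, and the D2 soft points in HOXA lie at 2.05 and 4.20.

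The difference did not pass a test. In log2 of the covered share, stiff exceeded soft over both days by 0.41 ± 0.16 (SE) in HOXB, 0.29 ± 0.18 in HOXA, 0.28 ± 0.17 in HOXC and 0.25 ± 0.18 in HOXD, beside a median of −0.11 over all windows. The lowest adjusted p was 0.393, for HOXB (limma). On D4 the differences were 0.52 ± 0.23 in HOXB, 0.51 ± 0.23 in HOXC, 0.40 ± 0.26 in HOXD and 0.30 ± 0.26 in HOXA (SE), with adjusted p of 0.871 to 0.891 (limma) and a median of −0.08 over all windows. 0 windows of the 10395 were called in either contrast, with 1229 (11.8%) and 586 (5.64%) at an unadjusted p under 0.05, of which 1 and 2 were HOX windows. Without D2 soft replicate 2, 1 of 4 HOX windows (HOXB) passed, at 0.54 with adjusted p = 0.0459 (limma), where 685 of all 10449 windows (6.56%) passed, and without D2 soft replicate 1 it was 0.28 with adjusted p = 0.553.

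Genes that act with HOX genes were read in the same way, as counts with no test. Of 9 genes for PBX and MEIS type partners, 6 had a promoter peak in every library, with a mean percentile of 71.2 for PBX4 and 65.1 for PBX3, and of 25.3 for MEIS2. Of 12 Polycomb genes, 4 had one in every library (EZH1, EED, SUZ12 and RNF2), EZH2, a histone methyltransferase, had one in 7, while BMI1 had none. Of 5 activators and boundary factors, 4 had one in every library, and the percentiles were 98.4 for MEN1 and 89.0 for CTCF.

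Of 8 neighbour genes, SKAP2, HIBADH and MTX2 had a promoter peak in every library at mean percentiles of 64.2 to 83.8, whereas EVX1 and EVX2, homeobox genes that are used with the 5′ HOX genes, and SNX10, PRAC1 and PRAC2 had none. EVX2 starts within the HOXD window, and PRAC1 and PRAC2 start between HOXB9 and HOXB13, so these genes are not outside the windows read here. Of 17 noncoding transcripts inside the clusters, 3 had a promoter peak in every library, HAGLR, HOXC-AS1 and MIR615, each at a peak shared with a HOX promoter. HOTAIR, a noncoding RNA of HOXC known for its link with Polycomb, was found in 6, in all 4 stiff and 2 soft libraries, and HOTTIP of HOXA in 1.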

How the data were processed

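ATAC-seq peak lists of 8 LX-2 libraries were used. By the submitters' processing notes and the methods of the study, the authors trimmed reads with Trim Galore, mapped them to hg19 with Bowtie2 2.4.1 and called peaks with MACS2 at a q of 0.05 (the notes also list Picard and bedtools 2.24.0, with no role), and 1 list per library was deposited; options and read totals are not given in the sources used here. The deposited fold enrichment is a ratio of summit pileup to local background. The −log10 p and −log10 q values and the summit offset are as the authors' caller wrote them, and the deposited score was not used. In 5 of 8 lists the peak names carry another replicate number than the label, and the label was kept.

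Genes and main starts (MANE Select) came from GENCODE release 44 on GRCh37; MIR10A and PECAM1 were not matched in it. Values of some members and 1 sequence are not reported here. The members, gene lists and motifs were chosen with earlier results of these data known. Per cluster, promoters in every library with the best and worst mean percentile, those in 1 to 7 libraries (12 at most, by number of libraries), the best site, and up to 4 one-group sites per comparison are given by library; counts of 5 or fewer are named where they are reported here.

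Peaks overlapping by 1 bp were merged. Promoters and sites with a peak in all libraries were ranked by fold enrichment, library by library, and fitted as normal scores with limma 3.58.1 in 4 groups, with Benjamini-Hochberg adjustment; the log2 covered share (500 bases added) was fitted likewise over windows tiling the genome. On simulated D4 data with 8478 promoters, 24246 sites and 10395 windows, 55%, 63% and 63% of 2-fold changes and 80%, 86% and 100% of 4-fold changes were recovered, with 4, 9 and 5 false calls. The simulated noise had the same spread in every row of a fit, in log2 0.209, 0.225 and 0.258. Recovery among the weak HOX peaks was not simulated apart. Under the MACS2 model, the whole number of summit fragments that gives the deposited fold and p-value within 0.001 was found for 100% of promoter peaks.

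Alternatives were leaving out each library, a replicate block, lists of equal length, a q of 0.01, each day alone, ranks of −log10 p, any coding start, 2 kb promoters, no flank, 2000 bases added, a 100 bp overlap and a peak in at least 1 replicate; CpG-rich promoters, day 4 alone for promoter and window counts, and ranks of −log10 p for medians were added after seeing the data.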

Additional observations from a re-analysis of the deposited data

Results flagged for a closer look

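The covered share of HOXA relative to the genome was 2.05 in D2 soft replicate 1, far below the 4.08 to 4.20 of the other 3 soft libraries. The 4 soft and the 4 stiff libraries were examined in this way for 9 measures of the HOX genes, 18 groups in all, and chance alone sets apart about 1 in 20 groups.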

How the results depend on the processing

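The absence of a called HOX promoter or site held in all alternatives that were run, with lowest adjusted p of 0.155 (limma). With lists shortened to the length of the shortest, which drops weak peaks, 1 HOX promoter was open in every library and 26 in none, and HOX sites of one group only numbered 0 for D2 stiff, 2 for D4 stiff, and 0 for D4 soft against D2 soft, the reverse, D4 stiff against D2 stiff, and all stiff against all soft. With a peak in at least 1 replicate the counts were 18 for D2 stiff (24.7%, against 20.1% of all sites) and 5 for D2 soft on D2 (6.85%, against 5.45%), 11 for D4 soft (15.1%, against 18.4%) and 5 for D2 soft over time (6.85%, against 6.10%), and 11 for D4 stiff against D2 stiff (15.1%, against 11.7%). At a q of 0.01 the soft sites of D2 against D4 numbered 0 (against 0.338% of all sites). With 2 kb promoters, 6 HOX genes had no peak and 1, HOXC12, had one in all stiff and no soft libraries. The shares of all coding genes with 2 kb promoters are not reported here, so these 2 counts have no background beside them.

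Leaving out 1 library gave 7 to 16 promoters open in every library (16 without D2 soft replicate 1) and 0 to 1 in all stiff and no soft libraries (1 without D2 stiff replicate 1, D4 soft replicate 1 or D4 stiff replicate 2). For the promoters in all stiff and no soft libraries, the share of all coding genes on leaving out 1 library is not reported here. Leaving out 1 library gave 6 to 28 D2 stiff sites (28 without D2 soft replicate 2, 38.9% against 29.7% of all sites, and 12 without either D2 stiff replicate, 16.9% against 14.9% and 12.4%). D2 soft sites on D2 numbered 0 to 5 (5 without D2 soft replicate 1, 6.85% against 4.70%). D4 stiff sites numbered 11 to 22 (22 without D4 soft replicate 1, 31.0% against 15.6%), and D4 soft sites on D4 0 to 4 (4 without D4 stiff replicate 2, 5.80% against 3.82%). Over time, leaving out 1 library gave 4 to 25 D4 soft sites (25 without D2 soft replicate 2, 34.7% against 26.0%, and 11 without D4 soft replicate 2, 15.1% against 13.6%). D2 soft sites numbered 1 to 4 (4 without D2 soft replicate 1, 5.48% against 5.41%, and 2 without D2 soft replicate 2 or D4 soft replicate 1, 2.78% and 2.82% against 1.06% and 1.65%). D4 stiff sites numbered 6 to 15 (15 without D2 stiff replicate 2, 21.1% against 12.8%) and D2 stiff sites 0 to 2 (2 without D4 stiff replicate 1, 3.03% against 3.35%, and 1 without D4 stiff replicate 2, 1.45% against 4.62%). Leaving out 1 library gave 1 to 4 for all stiff against all soft (4 without D2 stiff replicate 1, 5.63% against 1.90%, 1 without D4 soft replicate 2 or D4 stiff replicate 1, 1.37% and 1.52% against 1.45% and 1.47%, and 2 to 3 otherwise, 2.74% to 4.23% against 0.939% to 2.11%). It gave 0 to 1 called HOX windows for stiff against soft over both days, HOXB without D2 soft replicate 2.

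In the main setting, the stiff minus soft difference in log2 covered share on D2 was 0.28 ± 0.26 in HOXA and 0.31 ± 0.23 in HOXB (SE). It was 0.05 ± 0.23 in HOXC and 0.10 ± 0.26 in HOXD (SE). The lowest adjusted p was 0.651 (limma), and 0 of 10395 windows were called. The difference on D2 changed sign in HOXD without the flank (−0.10) and in HOXC and HOXD with 2000 bases added (−0.0919 and −0.0933). With lists of equal length it did so in HOXB (−0.00365), HOXC (−0.446) and HOXD (−0.447), and there HOXD was also −0.0600 over both days. Without D2 soft replicate 1 the difference on D2 was −0.10 in HOXA, −0.11 in HOXC and −0.26 in HOXD, and without D2 stiff replicate 1 it was −0.0921 in HOXC. The highest values on leaving out 1 library, D2 soft replicate 2, were 0.66 in HOXA, 0.20 in HOXC and 0.46 in HOXD. The cause was not tested.

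By the replicate numbers of the labels no pairing was seen, since the differences between replicates of 2 groups correlated at −0.03 to 0.07. The peak names carry other numbers in 5 of 8 lists, and a pairing by those was not tested. With a replicate block, 0 HOX promoters, sites and windows were called, with lowest adjusted p of 0.425 (limma). Peaks of few fragments limit all counts, and at this depth a missing peak cannot be told apart from a weak one.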
